A study of Sus scrofa with 36 samples.

Results

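The 12 hippocampi with the highest microglial marker score, called marker-high here, were compared with the 12 of the lowest score, called marker-low, out of 36 arrays. The score of an array was the mean log2 value of P2RY12, AIF1 and C1QA, so the arrays were chosen by their measured values and form no group of the study. All 36 samples came from male Landrace×Large White piglets at postnatal day 38. The study had allocated the piglets at 3 days of age to 3 feeding groups of 12. The control group drank milk replacer holding lactoferrin at its basal level alone, and the others drank replacer with 0.6 g/L or 1.2 g/L of lactoferrin added. Lactoferrin is an iron-binding glycoprotein of milk. RNA of the whole hippocampus was hybridised to porcine expression arrays, 1 array a sample.

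Microglia are the resident macrophages of the brain. They survey the tissue with motile processes, clear debris and prune synapses. P2RY12 is the ADP receptor that directs their processes towards injury and marks the surveying state, AIF1 (IBA1) is an actin-bundling protein of macrophages, and C1QA is a chain of C1q, the recognition molecule of the classical complement pathway, which tags synapses for removal. In bulk tissue a lower level of these transcripts can come from fewer microglia or from less of the RNA in each cell, and the 2 cannot be told apart here.

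The marker-high arrays had scores of 8.27 at the lowest, 8.45 at the median and 8.93 at the highest, and the marker-low arrays 7.83, 7.95 and 8.03. The values that chose the arrays are a description and carry no test. P2RY12 averaged 10.03 ± 0.24 in marker-high and 9.43 ± 0.13 in marker-low arrays (log2, SD, n = 12 each). AIF1 averaged 9.08 ± 0.19 in marker-high and 8.65 ± 0.17 in marker-low arrays. C1QA averaged 6.24 ± 0.24 in marker-high and 5.76 ± 0.16 in marker-low arrays. The last array inside the marker-high class, 1.2 g/L replicate 4, scored 8.267, and the first outside it, 0.6 g/L replicate 4, scored 8.233. At the lower edge, control replicate 5 scored 8.033 inside the marker-low class, and 1.2 g/L replicate 10 scored 8.067 outside it. The deposited values have 1 decimal, so each of these edges is the smallest step that the score can take. Control replicate 9 stood above all other arrays, with 10.6 for P2RY12, 9.4 for AIF1 and 6.8 for C1QA.

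**Figure D1:**
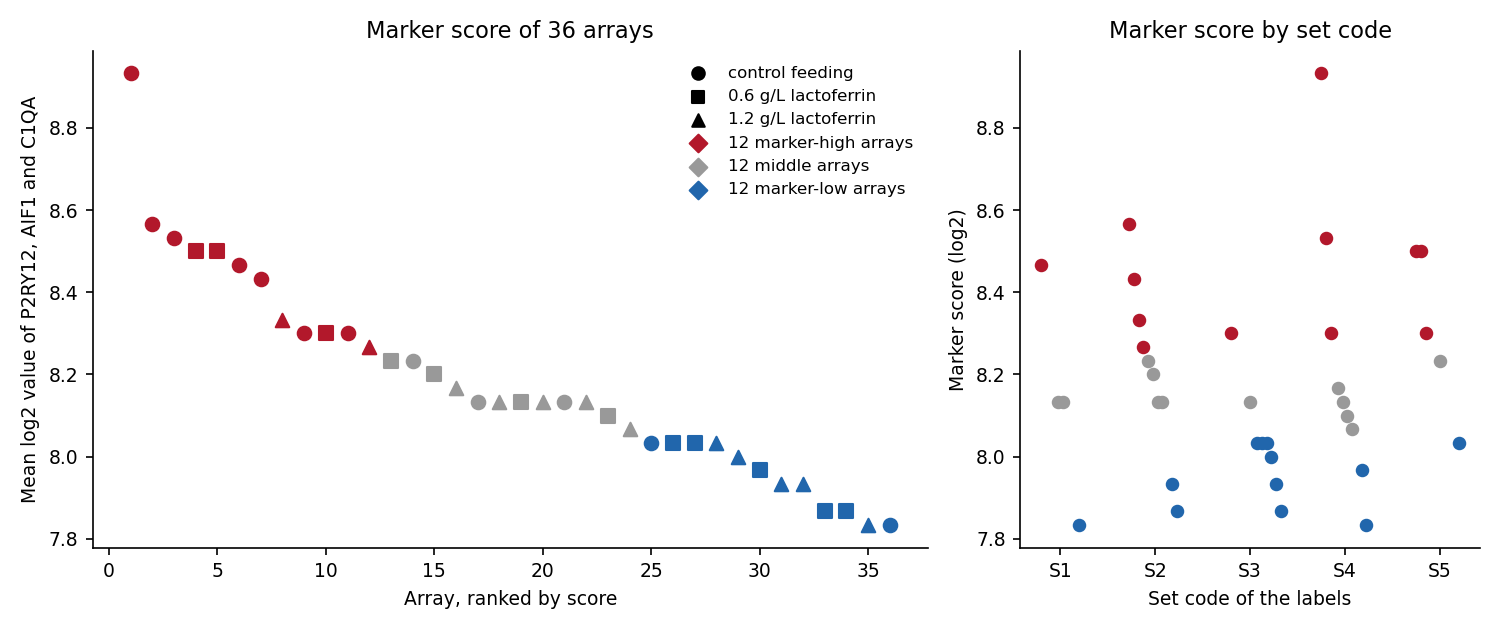
Left, the marker score (mean log2 value of P2RY12, AIF1 and C1QA) of 36 arrays in rank order, with colour for the class and symbol for the feeding group. Right, the same scores by the set code of the labels, where 6 of the 8 arrays of S3 are marker-low. Control replicate 9, at 8.93, stands apart at the top.

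Feeding groups and set codes were unevenly spread over the classes, by less than an exact test could tell from an even spread. Of the control piglets 7 were marker-high, 3 in the middle and 2 marker-low. Of those fed 0.6 g/L lactoferrin 3 were marker-high, 4 in the middle and 5 marker-low, and of those fed 1.2 g/L 2 were marker-high, 5 in the middle and 5 marker-low. Fisher's exact test on these counts, two-sided, gave p = 0.316 (0.381 after Benjamini-Hochberg adjustment over 2 tests). The score averaged 8.32 ± 0.29 in control piglets, 8.14 ± 0.21 at 0.6 g/L and 8.08 ± 0.14 at 1.2 g/L (SD, n = 12 each). Whether these means differed was not tested. The labels carry set codes S1 to S5 of unstated meaning. S3 had 1 marker-high and 6 marker-low arrays, S2 had 4 and 2, S4 3 and 2, S5 3 and 1, and S1 1 of each (exact p = 0.381, adjusted p = 0.381). The polyadenylated spike-in control Dap was absent in 3 marker-high and 6 marker-low arrays. The correlation of an array with the others lay between 0.9857 and 0.9925 in the marker-high class and between 0.9797 and 0.9929 in the marker-low class. Actin probe sets at the 3′ end exceeded those at the 5′ end, a sign of RNA quality, by 2.78 ± 0.32 in marker-high and 2.98 ± 0.50 in marker-low arrays (log2, SD, n = 12 each). Fits with Dap and with the actin difference as covariates are given with the results.

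Each marker was also measured in classes that it had not chosen, ranking the arrays by the other 2 markers. P2RY12 was then 9.8 at the lowest, 10 at the median and 10.6 at the highest in marker-high arrays, and 9.2, 9.45 and 9.8 in marker-low arrays. The classes met at a single value, and the difference of 0.55 (log2, SE 0.083) had the smallest p of 18004 probe sets (limma with Benjamini-Hochberg adjustment, adjusted p = 0.00478). AIF1 was 8.8, 9.1 and 9.4 in marker-high arrays and 8.3, 8.7 and 8.9 in marker-low arrays, a narrow overlap. Its difference of 0.43 (SE 0.075) passed with limma (adjusted p = 0.0195). C1QA was 5.9, 6.2 and 6.8 in marker-high arrays and 5.4, 5.8 and 6.2 in marker-low arrays. Its classes overlapped more widely, and the difference of 0.39 (SE 0.091) missed the threshold (limma adjusted p = 0.126). In all 3 cases 12 of 12 marker-high arrays lay above the marker-low median. These classes were nearly the main ones. They shared 12 marker-high and 10 marker-low arrays with them without P2RY12, 12 and 11 without AIF1, and 11 and 10 without C1QA. The p-values here therefore describe how the 3 markers moved together, and are no separate support for the classes. Across the 36 arrays, which share their hybridisation and processing, P2RY12 correlated with AIF1 at r = 0.803 and with C1QA at r = 0.746, and AIF1 with C1QA at r = 0.549.

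**Figure D2:**
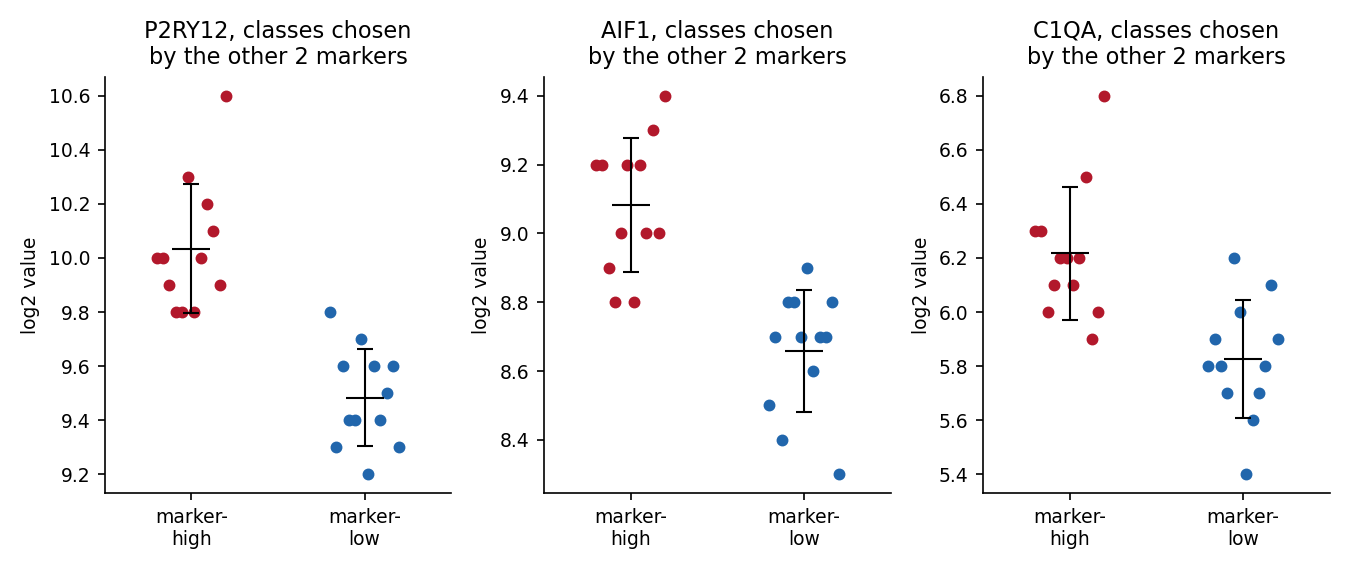
Log2 value of each marker in the 12 marker-high and 12 marker-low arrays ranked by the other 2 markers; bars give mean and SD. P2RY12 overlaps at 9.8 alone, AIF1 between 8.8 and 8.9, and C1QA between 5.9 and 6.2.

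The comparison of the classes asks which other hippocampal transcripts followed the microglial markers from piglet to piglet. A few transcripts passed, among them the partner chain of the marker C1QA and a ligand of phagocytic receptors, and most genes of microglia had small positive differences. With limma over 18003 probe sets, those of the 3 marker genes left out, 7 were higher in marker-high arrays (0.0389% of those tested) and 1 was lower (0.00555%) at an adjusted p under 0.05. At an unadjusted p under 0.05, 932 were higher (5.18%) and 786 lower (4.37%). The median difference of all probe sets was 0, and 46.6% lay above 0. In no probe set were the 12 marker-high and 12 marker-low arrays free of overlap. These p-values measure how closely a transcript followed the score in these arrays, and compare no treatments.

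C1QC, the chain that joins C1QA and C1QB in C1q, had the largest difference of the probe sets that passed. It was 8.5 at the lowest, 8.9 at the median and 9.6 at the highest in marker-high arrays, against 7.9, 8.35 and 8.6 in marker-low arrays. Control replicate 9 held the top value, and 9 of 12 marker-high arrays lay above every marker-low array. The difference was 0.55 (SE 0.10, limma adjusted p = 0.0271). Within set codes it was lowest in S5 (0.23) and otherwise 0.53 to 0.58, or 1.0 in S1, which has 1 array a class. Among control piglets it was 0.37, among those fed 0.6 g/L 0.57 and among those fed 1.2 g/L 0.60.

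PROS1 encodes protein S, an anticoagulant of plasma that also bridges apoptotic cells to the receptors TYRO3 and MERTK. It was 7.6, 7.75 and 7.9 in marker-high arrays, against 7.3, 7.5 and 7.7 in marker-low arrays. The ranges overlapped between 7.6 and 7.7, where 2 marker-low arrays lay, and 12 of 12 marker-high arrays lay above the marker-low median. The difference was 0.30 (SE 0.052, limma adjusted p = 0.0175) and was above 0 in every set code (0.23 to 0.40) and feeding group (0.19 to 0.46). PROS1, whose cell of origin was not tested, stood in a list of 10 measured ligands known to restrain or support microglia, mostly from neurons. No other member passed, and the median of the list was 0.00. CD47 was lower by -0.13 (SE 0.058, unadjusted limma p = 0.0293), and by -0.03 and -0.01 in its other probe sets. CD200, which holds microglia in check through its receptor, differed by 0.09 (SE 0.062), and IL34, a ligand of the CSF1 receptor that microglia need to survive, by -0.03 (SE 0.054).

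LOC100624077, which the annotation leaves without a name, was 10.4, 10.6 and 11.3 in marker-high arrays, against 9.9, 10.2 and 10.6 in marker-low arrays. It differed by 0.47 (SE 0.090, limma adjusted p = 0.0427), by 0.90 in S4 and by 0.20 to 0.45 in the other set codes. Among control piglets it differed by 0.69, among those fed 0.6 g/L by 0.48 and among those fed 1.2 g/L by 0.06. All 12 marker-high arrays lay above the marker-low median. A further 4 probe sets without a gene name were higher, by 0.30 to 0.50. The smallest adjusted p of all, 0.00245 with limma, belonged to one of these, with a difference of 0.33 (SE 0.046).

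The single lower probe set was of ACTN2, an actin-crosslinking alpha-actinin of muscle that is also found at synaptic spines. ACTN2 was named here after its values were seen. The probe set was 7.0, 7.2 and 7.3 in marker-high arrays and 7.3, 7.45 and 7.7 in marker-low arrays, which meet at one value. Its difference was -0.28 (SE 0.051, limma adjusted p = 0.0229). The brighter probe set of the same gene differed by -0.25 (SE 0.15) and did not pass (limma adjusted p = 0.612), so the gene's probe sets disagree on the call.

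These calls depended on how set code and feeding were handled, while the differences of C1QC and PROS1 moved little. With the set code as a fixed block no probe set passed by limma, while 1138 had an unadjusted p under 0.05. C1QC then differed by 0.55 and PROS1 by 0.31, both at adjusted p = 0.247. With the set code as a random block 7 of the 8 passed (limma adjusted p = 0.0309 for C1QC and 0.0203 for PROS1). With the feeding group as a covariate 1 probe set passed, one without a gene name, and C1QC differed by 0.52 (adjusted p = 0.241). With Dap as a covariate 7 of the 8 passed (limma adjusted p = 0.0493 for C1QC and PROS1), and with the actin difference as a covariate 6 did, PROS1 (0.0371) but not C1QC (0.0629). Without the arrays that lack Dap 1 probe set passed, none of the 8, and C1QC differed by 0.56. Without S3 none passed, 879 had an unadjusted p under 0.05 and C1QC differed by 0.55.

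Of the genes that missed the threshold, the smallest p-values belonged to HOPX, CD53, RGS10, LPCAT2, CNPY2, PTGS1 and FCGR3A. HOPX, a small homeodomain protein that binds no DNA itself, differed by 0.30 (SE 0.062, limma adjusted p = 0.0891). CD53, a tetraspanin of white blood cells and microglia, was 8.0, 8.3 and 9.2 in marker-high arrays and 7.4, 7.9 and 8.5 in marker-low arrays. It differed by 0.50 (SE 0.11, limma adjusted p = 0.136), and its other probe set by 0.48. By set code the difference ran from -0.13 in S5 to 0.87 in S4, and by feeding group from 0.16 at 1.2 g/L to 0.67 at 0.6 g/L. The classes overlapped between 8.0 and 8.5.

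RGS10, a regulator of G protein signalling abundant in microglia, was 7.4, 7.8 and 8.5 in marker-high arrays and 7.1, 7.4 and 7.7 in marker-low arrays. It differed by 0.43 (SE 0.099, limma adjusted p = 0.136). FCGR3A, a low-affinity Fc receptor for IgG, had the widest spread of these genes. It was 7.7, 8.2 and 9.6 in marker-high arrays and 7.3, 7.5 and 8.3 in marker-low arrays, with control replicate 9 again at the top. Its difference was 0.68 (SE 0.16, limma adjusted p = 0.157), but 0.03 by its other probe set. LPCAT2, an enzyme that makes platelet-activating factor, differed by 0.43 (SE 0.10), and PTGS1, the cyclooxygenase COX-1, by 0.29 (SE 0.069), but by 0.04 in its other probe set.

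**Figure D3:**
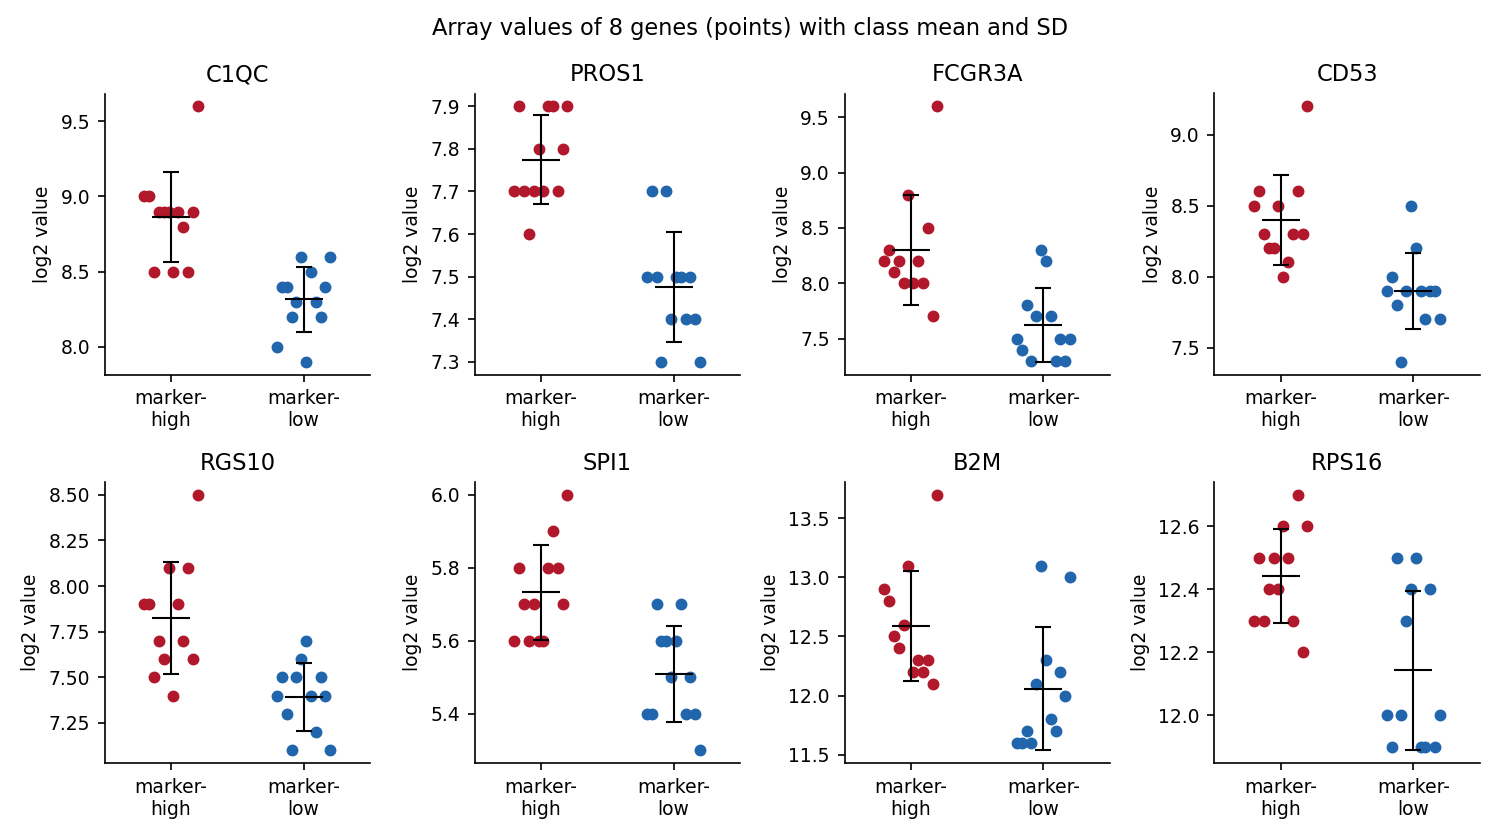
Log2 values of 8 genes in the 12 marker-high and 12 marker-low arrays, with mean and SD; each panel has its own axis, which does not start at 0. C1QC and PROS1 passed the test over all probe sets, and the other 6 did not. A single marker-high array, control replicate 9, holds the top value of C1QC, FCGR3A, CD53, RGS10, SPI1 and B2M.

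Microglial genes were read through a list of 80 symbols of homeostatic microglia, of which 38 were on the array. Of these, 3 made the score, 4 were too dim and 31 were tested. C1QC passed over all probe sets. At an unadjusted p under 0.05, 16 were higher, 51.6% of those tested, and none lower, against 5.18% higher over all probe sets. The median difference was 0.18, against 0 over all probe sets. Above 0 lay 27 members and below it 4, while 46.6% of all probe sets lay above 0. In the mean over the list, marker-high arrays lay between 7.19 and 7.87 and marker-low arrays between 7.01 and 7.44. The classes overlapped, at 7.42 ± 0.18 and 7.21 ± 0.10 (SD, n = 12 each), and without control replicate 9 the difference was 0.16 instead of 0.20.

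By role, the transcription factors came first: SPI1 (PU.1), which specifies macrophages, was 5.6, 5.7 and 6.0 in marker-high arrays and 5.3, 5.5 and 5.7 in marker-low arrays. It differed by 0.23 (SE 0.056, limma adjusted p = 0.166), with 12 of 12 marker-high arrays above the marker-low median. IRF8, its partner in microglia, differed by 0.18 (SE 0.076, limma adjusted p = 0.440). Signal adaptors lay on the same side. TYROBP (DAP12), the adaptor of TREM2, was 7.5, 7.65 and 8.0 in marker-high arrays and 6.9, 7.4 and 7.8 in marker-low arrays. It differed by 0.28 (SE 0.088, limma adjusted p = 0.302). FCER1G, the shared chain of Fc receptors, differed by 0.21, and BLNK, a linker of immune receptors, by 0.43, neither of which passed.

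Receptors and effectors had differences of like size and did not pass. FCGR1A, the high-affinity IgG receptor, differed by 0.33, and ITGB2, the beta chain of the complement receptor CR3, by 0.23. CYBA and NCF4, parts of the phagocyte NADPH oxidase, differed by 0.23 and 0.27. CTSS, a cathepsin that microglia secrete, was 7.6, 8.3 and 9.9 in marker-high arrays and 7.3, 7.75 and 8.7 in marker-low arrays, a difference of 0.50 (SE 0.21, limma adjusted p = 0.448). Its classes overlapped over most of their range. Below 0 were BIN1 (-0.15), LCP1 (-0.08), CD14 (-0.04) and GAS6 (-0.03). ITGAM, the other chain of CR3, was too dim to be tested.

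**Figure D4:**
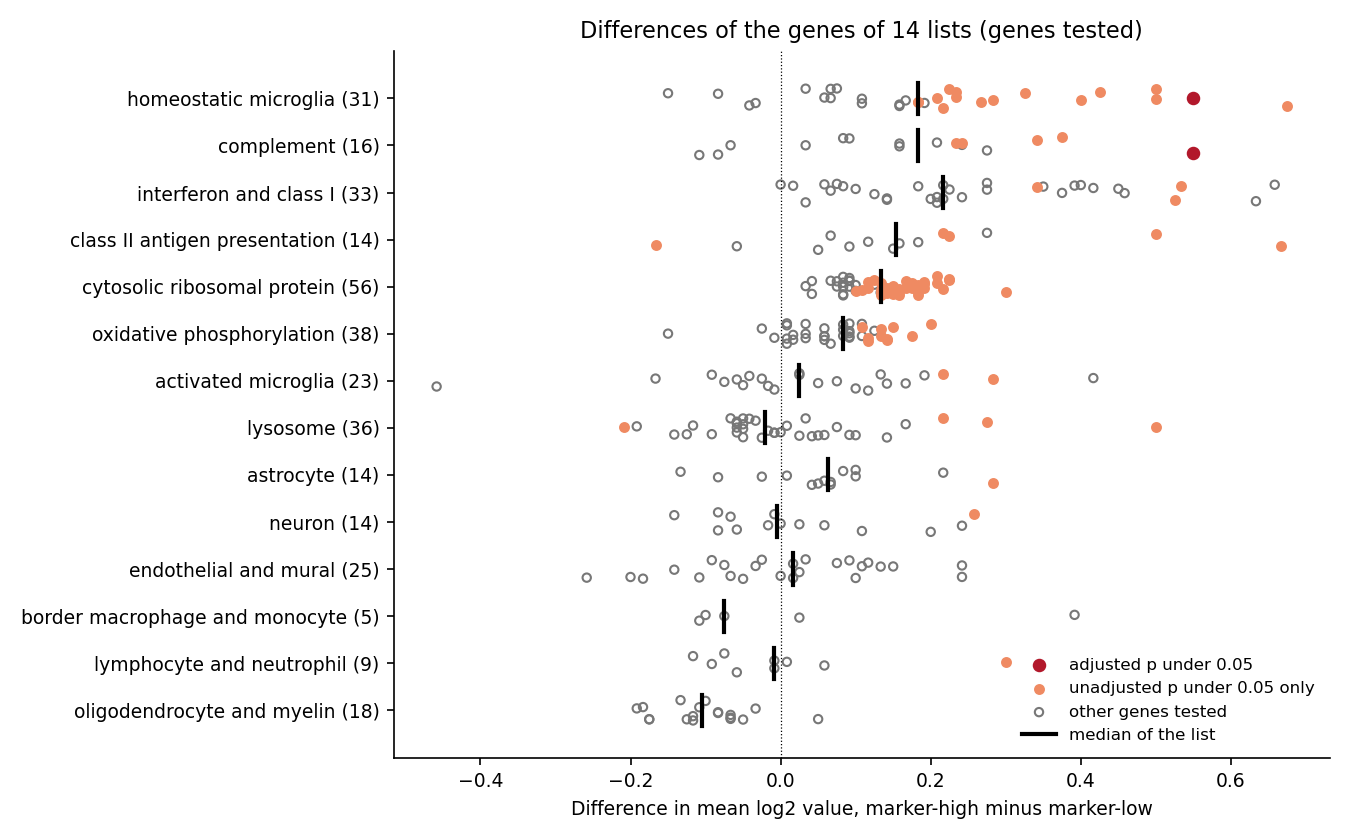
Difference in mean log2 value, marker-high minus marker-low, of each gene tested in 14 lists, 1 probe set a gene; the black line is the median of the list. C1QC, in 2 lists, is the single gene here with an adjusted p under 0.05. The homeostatic microglia, ribosomal and interferon lists lie mostly above 0, and the oligodendrocyte list lies mostly below.

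Genes of activated microglia gave no such pattern. Of 23 tested, 2 were higher at an unadjusted p under 0.05 (5.18% over all probe sets), none passed, and the median was 0.03. APOE, a lipid carrier that activated microglia also make, differed by 0.13 (SE 0.073). SPP1 (osteopontin) differed by -0.17 (SE 0.20) and GPNMB by -0.46 (SE 0.405), and both had wide ranges in both classes. Lysosomal genes, 36 in number, had a median of -0.02. At an unadjusted p under 0.05, 3 of them were higher and 1 lower (5.18% and 4.37% over all probe sets). CD63, a tetraspanin of late endosomes, differed by 0.22 (SE 0.065, limma adjusted p = 0.294), and SGSH, a sulfatase that degrades heparan sulfate, by -0.21 (SE 0.073, limma adjusted p = 0.362).

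Of 16 complement genes tested, C1QC included, 5 were higher at an unadjusted p under 0.05 (5.18% over all probe sets) and none lower, and the median was 0.18. C1QC alone passed. The mean over the list differed by 0.25 among control piglets, 0.21 among those fed 0.6 g/L and -0.10 among those fed 1.2 g/L, and it was below 0 in S1 (-0.21) and S5 (-0.16). C3, the protein on which all complement pathways converge, was 9.0, 9.3 and 10.5 in marker-high arrays and 8.6, 9.1 and 9.6 in marker-low arrays. It differed by 0.34 (SE 0.14, limma adjusted p = 0.414). The regulators CD55 and CD59, which protect cells from complement, differed by 0.38 and 0.24, and neither passed.

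Interferon-response and class I genes lay mostly above 0, though not in every feeding group. Of 33 tested, 32 lay above 0 (46.6% of all probe sets) with a median of 0.22. At an unadjusted p under 0.05, 3 were higher (5.18% of all probe sets), and none passed. B2M, the light chain of class I molecules, was 12.1, 12.45 and 13.7 in marker-high arrays and 11.6, 11.9 and 13.1 in marker-low arrays. It differed by 0.53 (SE 0.19, limma adjusted p = 0.362), and by -0.15 to 0.52 in its 8 other probe sets. PSME1, a proteasome activator induced by interferon gamma, differed by 0.34 and SLA-2, a porcine class I heavy chain, by 0.53, and neither passed. The mean over the list differed by -0.51 among control piglets, 0.79 among those fed 0.6 g/L and 0.08 among those fed 1.2 g/L. The 2 marker-low control arrays stood far apart, replicate 8 at 8.80 and replicate 5 at 7.39. Marker-high control arrays ran from 7.19 to 8.59, so control replicate 8 alone set the sign among control piglets. At 0.6 g/L the marker-high arrays were all of S4 or S5. The marker-low arrays there were of S2 or S3, except replicate 8 of S4. Every array of the series with a list mean above 8 was of S4 or S5, so class and set code largely coincide in the 0.6 g/L value. Within set codes the difference of the list mean ranged from -0.46 in S5 to 0.40 in S2. The homeostatic microglia mean differed by 0.24 among control piglets, by 0.28 among those fed 0.6 g/L and by 0.03 among those fed 1.2 g/L, and by -0.03 in S5 to 0.40 in S4. Whether these list means differed between feeding groups was not tested.

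Of 14 class II genes tested, 12 lay above 0 (46.6% over all probe sets) and 2 below, with a median of 0.15. At an unadjusted p under 0.05, 4 were higher (5.18% over all probe sets) and 1 was lower (4.37%), and none passed. SLA-DRA, a class II chain, was 5.3, 6.2 and 8.9 in marker-high arrays and 5.1, 5.8 and 6.9 in marker-low arrays, so the classes overlapped over most of their range. Its difference was 0.67 (SE 0.30), while SLA-DOA, a regulator of class II loading, differed by -0.17 (SE 0.063).

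**Figure D5:**
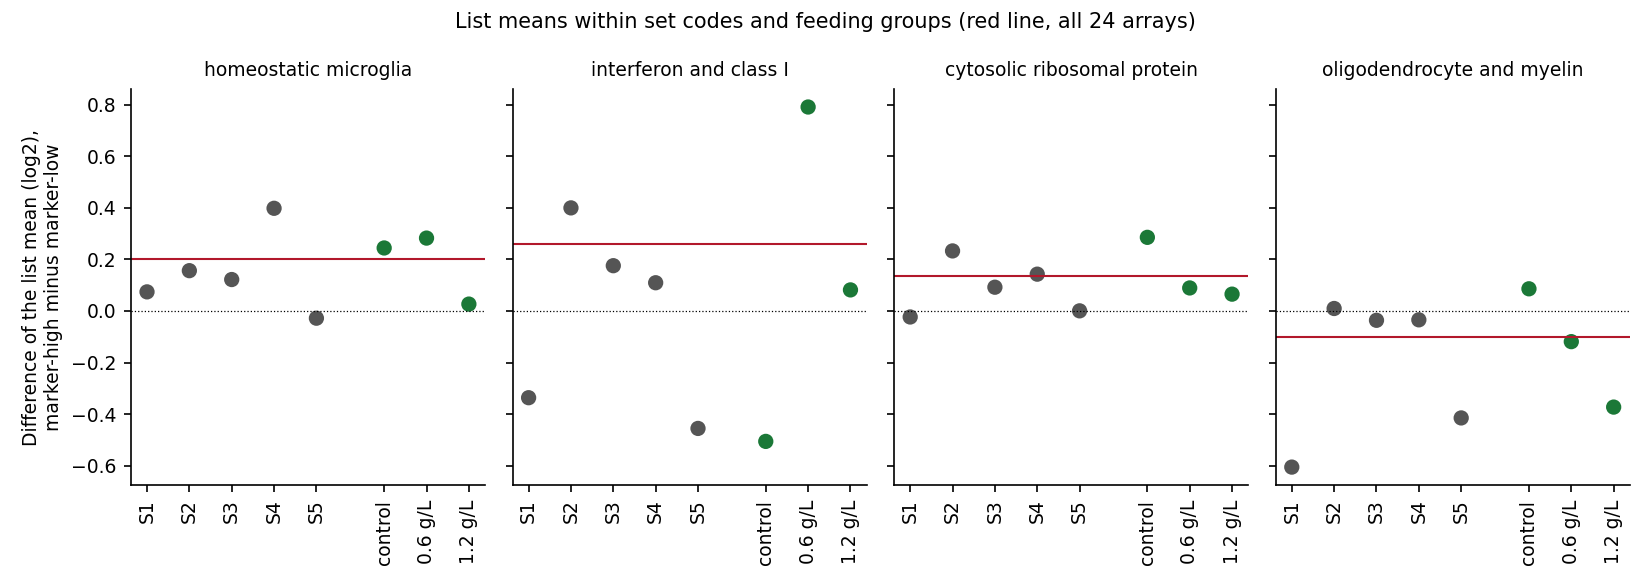
Difference of the list mean (log2), marker-high minus marker-low, within each set code and feeding group; S1 has 1 array a class, and the red line is the difference over all 24 arrays. The homeostatic microglia difference is below 0 in S5 alone, whereas the interferon list runs from -0.51 among control piglets to 0.79 at 0.6 g/L. The control values rest on 2 marker-low arrays. At 0.6 g/L the marker-high arrays are all of S4 or S5 and the marker-low arrays mostly of S2 or S3.

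Ribosomal protein genes, which encode the subunits of the cytosolic ribosome, had small differences of one sign. All 56 tested lay above 0, against 46.6% of all probe sets, with a median of 0.13. At an unadjusted p under 0.05, 37 of them were higher, against 5.18% of all probe sets, and none passed the adjusted threshold. RPS16 was 12.2, 12.45 and 12.7 in marker-high arrays and 11.9, 12.0 and 12.5 in marker-low arrays. It differed by 0.30 (SE 0.083, limma adjusted p = 0.237), and the classes overlapped between 12.2 and 12.5. By feeding group the list mean differed by 0.29 among control piglets, 0.09 at 0.6 g/L and 0.07 at 1.2 g/L, and by set code from -0.02 in S1 to 0.23 in S2. Of 38 genes of oxidative phosphorylation, 35 lay above 0 and 10 were higher at an unadjusted p under 0.05 (46.6% and 5.18% of all probe sets), with a median of 0.08. NDUFA2, a subunit of complex I, differed by 0.20 (SE 0.057, limma adjusted p = 0.266).

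Markers of other cell types of the hippocampus had list medians between -0.10 and 0.06. Of all probe sets, 46.6% lay above 0, and 5.18% were higher and 4.37% lower at an unadjusted p under 0.05. The mean of 8 genes of hippocampal subfields was 8.18 ± 0.27 in marker-high and 8.11 ± 0.25 in marker-low arrays. Of 7 choroid plexus and ependyma genes 2 lay above 0 and 5 below, and none passed. RARRES2 (chemerin) differed by 0.28 (SE 0.12, unadjusted limma p = 0.0254), FOLR1, a folate receptor, by 0.28 (SE 0.17) and IGF2, a growth factor, by -0.13 (SE 0.059, unadjusted limma p = 0.0424), while TTR (transthyretin) averaged 6.43 ± 0.79 in marker-high and 6.5 ± 0.85 in marker-low arrays. Of 18 oligodendrocyte and myelin genes 17 lay below 0, with a median of -0.10, and none had an unadjusted p under 0.05. MBP, the main cytoplasmic protein of compact myelin, averaged 14.52 ± 0.13 in marker-high and 14.6 ± 0.13 in marker-low arrays. The mean over the list ran from 9.95 to 11.02 in marker-high and from 10.01 to 11.18 in marker-low arrays. The value of 11.18 belonged to 1.2 g/L replicate 2, the array of lowest correlation with the others. The list mean differed by 0.09 among control piglets, -0.12 at 0.6 g/L and -0.37 at 1.2 g/L. By set code it differed from -0.61 in S1, which has 1 array a class, to 0.01 in S2. Among 14 neuron genes 1 was higher at an unadjusted p under 0.05 and the median was 0.00, and SNAP25, a synaptic fusion protein, differed by 0.03. Among 14 astrocyte genes the median was 0.06. GJA1 (connexin 43), the gap junction protein of astrocytes, differed by 0.28 (SE 0.078, limma adjusted p = 0.237), and GFAP by -0.08 (SE 0.11). None of 25 endothelial and mural genes had an unadjusted p under 0.05.

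Macrophages of the brain's borders and blood cells share several of these transcripts, so their own markers were read beside them. CD163 and LYVE1 of border macrophages, S100A8, S100A9 and S100A12 of neutrophils and monocytes, and CD3E and CD79B of lymphocytes lay below the brightness filter. CD163 averaged 4.79 ± 0.25 in marker-high and 4.65 ± 0.37 in marker-low arrays. MRC1, the mannose receptor of border macrophages, averaged 5.25 ± 0.16 in marker-high and 5.23 ± 0.16 in marker-low arrays. Of the 5 border macrophage and monocyte genes tested none had an unadjusted p under 0.05. The mean over them ran from 6.12 to 6.98 in marker-high and from 6.1 to 6.84 in marker-low arrays. Of 9 lymphocyte and neutrophil genes 1 was higher at that threshold (5.18% over all probe sets). It was JCHAIN, the joining chain of IgA and IgM (difference 0.30, SE 0.099). The mean over the 9 genes ran from 5.27 to 5.77 in marker-high and from 5.38 to 5.54 in marker-low arrays. The part of these cells in the microglial differences was not tested. Of the defining microglial markers, C1QB, CX3CR1, CSF1R, TMEM119 and TREM2 had no probe set named for them alone.

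The score was also fitted as a number over all 36 arrays, a fit that includes the 24 arrays of the classes. It had no covariate, and control replicate 9, at 8.93 against 8.57 for the next array, lay far out on the score. The fit was not repeated without that array, nor with set code or feeding group, on which the class calls depended. In this fit 89 probe sets were higher with the score (0.494% of those tested) and 2 lower (0.0111%) at an adjusted p under 0.05, against 8 between the classes. They named 57 genes. Of the 31 homeostatic microglia genes 12 were among them by their brightest probe set, namely C1QC, CD53, FCGR3A, SPI1, IRF8, TYROBP, FCER1G, LAPTM5, BLNK, NCF4, VAV1 and SLCO2B1, and CTSS made 13 by another probe set. None of the 56 ribosomal and none of the 33 interferon and class I genes passed by any probe set named for it alone. LOC100513601, which is in no list and shares a further probe set with the class I genes SLA-1 and SLA-2, passed (change of 0.57 over the gap between the class scores, limma adjusted p = 0.0297). Probe sets without a single gene name, whose identifiers share a stem with those of SLA-2 and SLA-3, passed too. One changed by 0.64 (limma adjusted p = 0.0297) and another by 0.65 (limma adjusted p = 0.0399). Class I transcripts were therefore among those that followed the score in this fit.

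The named genes most like the score were found by their correlation with it over the 36 arrays. C1QC led with r = 0.838, followed by RGS10 (0.798), LOC100624077 (0.791), CD53 (0.780), ARPC1B (0.779), RNF128 (0.774), BIN2 (0.771), FCGR3A (0.765), PIK3CG (0.764) and CALCR (0.738). ARPC1B is a subunit of the actin-nucleating Arp2/3 complex, RNF128 a ubiquitin ligase, PIK3CG a lipid kinase of white blood cells and CALCR the calcitonin receptor. Of these 10, LOC100624077 had r = -0.02 over the 12 middle arrays, and the others had r between 0.17 and 0.47. The most opposed genes were PRRC2A (-0.576), DCTN4 (-0.572), PRMT5 (-0.569), HUWE1 (-0.561) and FSCN1 (-0.552). Over the 12 middle arrays r was -0.09 for PRRC2A, -0.14 for HUWE1 and -0.45 for FSCN1. It had the other sign for DCTN4 (0.18) and PRMT5 (0.31). FSCN1, the actin-bundling protein fascin, differed by -0.23 (SE 0.062, limma adjusted p = 0.202).

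The 12 middle arrays took no part in the comparison of the classes, and their scores span 8.07 to 8.23. Between their 6 arrays of higher and 6 of lower score, 65.0% of the 932 probe sets that were higher at an unadjusted p under 0.05 lay above 0, against 46.3% of all 18003. Of the 786 lower ones 37.4% lay above 0. The slope on the score over the 12 middle arrays needs no split of tied scores. By that slope 60.9% of the higher and 52.3% of the lower probe sets kept their sign, against 50.3% of all. By list, 21 of 31 homeostatic microglia genes lay above 0 between the 6 and 6 arrays, with a median of 0.05. Of the ribosomal genes 31 of 56 did, with a median of 0.02, and of the interferon and class I genes 28 of 33, with a median of 0.20. C1QC differed by 0.08 and PROS1 by -0.05 in these arrays. A score of 8.133 is shared by 6 of the middle arrays, which fall on one side or the other by column order.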

How the data were processed

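Affymetrix porcine arrays of 36 hippocampi were used as the authors deposited them, as log2 values per probe set with 1 decimal. The submitters' processing notes name RMA (background correction, quantile normalisation and probe summary) and Affymetrix Expression Console 1.1. No raw intensities were used. Of 23999 probe sets besides 124 array controls, the array annotation gave 10069 exactly 1 gene symbol, 198 several and 13732 none, and 9961 names were matched by gene ID to the RefSeq table. Probe sets with a mean under the 25th percentile (log2 4.92) were left out. Each marker has 1 probe set.

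Class means were compared by limma 3.58.1 (lmFit, eBayes) in R 4.3.3, without covariates, two-sided, with Benjamini-Hochberg adjustment over 18003 probe sets at a threshold of 0.05. The model was tested on simulated data. Plots used matplotlib 3.10.9 under Python 3.11.15. Precision is limited by the number of arrays. The limma p-values set a difference against the spread between samples in classes cut on measured marker values, and compare no treatments.

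The score, classes and 24 gene lists were chosen with earlier results of these data known. For each gene the probe set of highest mean was used. Named genes were the 12 largest differences in each direction that passed (fewer than 10 passed, so the 10 smallest p were added), up to 4 members of each list by p, and a set of microglial and cell type markers. Other genes given as list members or correlates were named for their place there. Alternatives were other filters, blocks, covariates, class sizes, scores and normalisations, and leaving out each array; 3 were added after the data had been seen. Promoter sequences were not used here.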

Additional observations from a re-analysis of the deposited data

Results flagged for a closer look

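In a check of 45 groups of samples for a value far from the others, 3 stood out, and chance alone gives about 1 in 20 such groups. C1QA was 6.80 in control replicate 9, against 6.20 in the next array of set code S4 and 5.70 in the lowest. The mean of the activated microglia list was 8.26 in 0.6 g/L replicate 5, below 8.35 in the next array of S3 and 8.43 in the highest. The mean of the oligodendrocyte and myelin list was 11.02 in control replicate 4, against 10.42 in the next array of S2 and 9.95 in the lowest.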

How the results depend on the processing

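The number of probe sets that passed, 8 in the main fit and not always the same ones elsewhere, depended on most design settings. It was 0 with the set code as a fixed block, 1 with the feeding group, 1 with set code and feeding group together, 5 with the interferon mean, 19 with the oligodendrocyte mean and 20 with the neuron mean as covariates. It was 1 with 8 arrays a class, 3 with scores centred within set codes, 3 with 1 probe set a gene (named genes alone), 33 with array weights and 91 with the score as a number. In settings chosen after seeing the data it was 1 without the arrays that lack Dap, 0 in lactoferrin-fed arrays alone (2509 at an unadjusted p under 0.05) and 0 without set code S3. Leaving out each array gave 4 to 17 calls, and 1311 to 2084 probe sets at an unadjusted p under 0.05. The count was 4 without control replicate 2, 0.6 g/L replicate 3 or 0.6 g/L replicate 5, and 5 without 0.6 g/L replicates 7 or 8 or 1.2 g/L replicate 8. It was 13 without 1.2 g/L replicates 6 or 12, 15 without control replicate 12 and 17 without 1.2 g/L replicate 2, the array of lowest correlation. Against 1718 probe sets at an unadjusted p under 0.05, there were 1138 with the set code as a block, 836 with set code and feeding group, 720 with 1 probe set a gene, 2907 without the 3 arrays of lowest correlation and 879 without S3. The cause of these shifts was not tested, except that fewer probe sets were tested with 1 probe set a gene and fewer arrays entered where some were left out. With the replicate number as a replicate block 2 probe sets passed, none of the 8. Only 8 of 36 pairs of arrays with the same number in different feeding groups correlated above 0.1 after group means were removed. Of all arrays, 2 correlated best with one of their own number. Most arrays of the same number also share a set code, so the replicate block overlaps in part with the set code. Over 53 alternatives C1QC, PROS1 and LOC100624077 kept their sign in all, and passed in 33, 44 and 21. The median of the homeostatic microglia list stayed above 0 in all 53 (0.10 to 0.26), as did that of the ribosomal list (0.07 to 0.17), and the interferon median did in 49 (-0.02 to 0.44). The oligodendrocyte median stayed below 0 in all 53. Under other class sizes and scores, the exact p was 0.161 to 0.330 for feeding groups and 0.470 to 0.829 for set codes. The mean of all probe sets of each marker was not run, since each has 1. Depth does not apply to arrays, and dim probe sets limited what could be tested.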
